A study of Litchi chinensis with 18 samples.

Results

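Terpene synthases turn prenyl diphosphates into volatile terpenes, and 75 of the 34024 loci in the expression table of litchi (Litchi chinensis) floral organs carried a Swiss-Prot annotation as such an enzyme. Members were the gene models whose annotation named a terpene synthase in general or a linalool, nerolidol, germacrene, limonene, farnesene, pinene, ocimene, myrcene, terpineol or cadinene synthase. The 87 models found in this way were summed to 75 loci, of which 11 are listed as new genes and 7 hold more than 1 model. By annotation, 7 loci were limonene, pinene or myrcene synthases, 6 were linalool or nerolidol synthases, 21 were alpha-farnesene synthases, 11 were germacrene D synthases, 9 were sesquiterpene synthases of other names, 3 were geranyllinalool synthases and 18 were terpene synthases named only by a number. The annotation gives the plant protein each locus is most like, and neither the product of the litchi enzyme nor a scent compound was analysed here. A further 13 loci carry a terpene synthase domain but no such name, and they were left out.

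Stamens and carpels were detached from full-bloom flowers of 'Feizixiao' litchi of 3 types, with 3 libraries for each of the 6 organs. F flowers function as female and have rudimentary stamens, M flowers function as male and have rudimentary, unobvious pistils, and m flowers function as male and have rudimentary but obvious pistils. The organs are called F-stamen, M-stamen, m-stamen, F-carpel, M-carpel and m-carpel, no treatment was given, and the cultivar was the same throughout. Sampling in triplicate covered parts of the tree facing the 4 directions, and the sources used here do not say whether the 3 libraries of an organ came from different trees, so p-values measure the spread between these libraries.

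Monoterpene synthases use geranyl diphosphate in the plastid, sesquiterpene synthases use farnesyl diphosphate, and geranyllinalool synthase uses geranylgeranyl diphosphate. The precursors come from the methylerythritol phosphate (MEP) pathway of the plastid and from the mevalonate pathway of the cytosol. In many plants terpene volatiles are main components of the scent by which flowers attract insects, and they also act in defence.

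Libraries held 25689398 to 32302522 counts in total. A locus with 0 counts in the smallest of them could still lie at up to 0.117 CPM (counts scaled to the library total), by counting error only. The labels of the organs were checked on MADS-box marker genes. LcPI, the litchi PISTILLATA gene needed for stamens, averaged 409, 643 and 374 FPKM in F-stamen, M-stamen and m-stamen, against 2.61, 76.7 and 4.01 FPKM in F-carpel, M-carpel and m-carpel, so that M-carpel held 11.9% of the M-stamen level. Summed with LcAP3-1, the other stamen marker, the level was 565 to 983 FPKM in the stamen libraries. This sum was 77.8 to 84.1 FPKM in F-carpel, 133 to 142 FPKM in M-carpel and 39.0 to 41.5 FPKM in m-carpel. Most of the sum in F-carpel and m-carpel was thus LcAP3-1, which was not near 0 in F-carpel as LcPI was. LcSTK, a gene of ovule identity, averaged 32.9 FPKM in F-carpel, 1.12 FPKM in M-carpel, 7.85 FPKM in m-carpel and at most 0.743 FPKM in the stamens. Levels are given as FPKM, fragments mapped per kilobase of transcript and scaled to library size, which allows levels of different loci to be compared.

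Reads were found for 53 of the 75 loci, and 22 were without any read. For these, the 18 libraries together set an upper limit of 0.00564 CPM on the pooled level, by counting error only. This limit does not hold for a single organ. Summed over all 75 loci, the level was 89.3, 84.7 and 91.9 FPKM in the F-stamen libraries, 156.2, 179.4 and 163.6 FPKM in M-stamen and 139.5, 154.0 and 166.1 FPKM in m-stamen. It was 136.7, 128.2 and 139.7 FPKM in F-carpel, 193.5, 162.7 and 181.6 FPKM in M-carpel and 43.0, 41.1 and 37.9 FPKM in m-carpel. The 3 m-carpel libraries were thus below all others and the 3 F-stamen libraries came next. M-stamen, m-stamen and M-carpel overlapped, and F-carpel overlapped with m-stamen. In such bulk samples fewer cells that express a gene and less RNA per cell cannot be told apart.

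**Figure D1:**
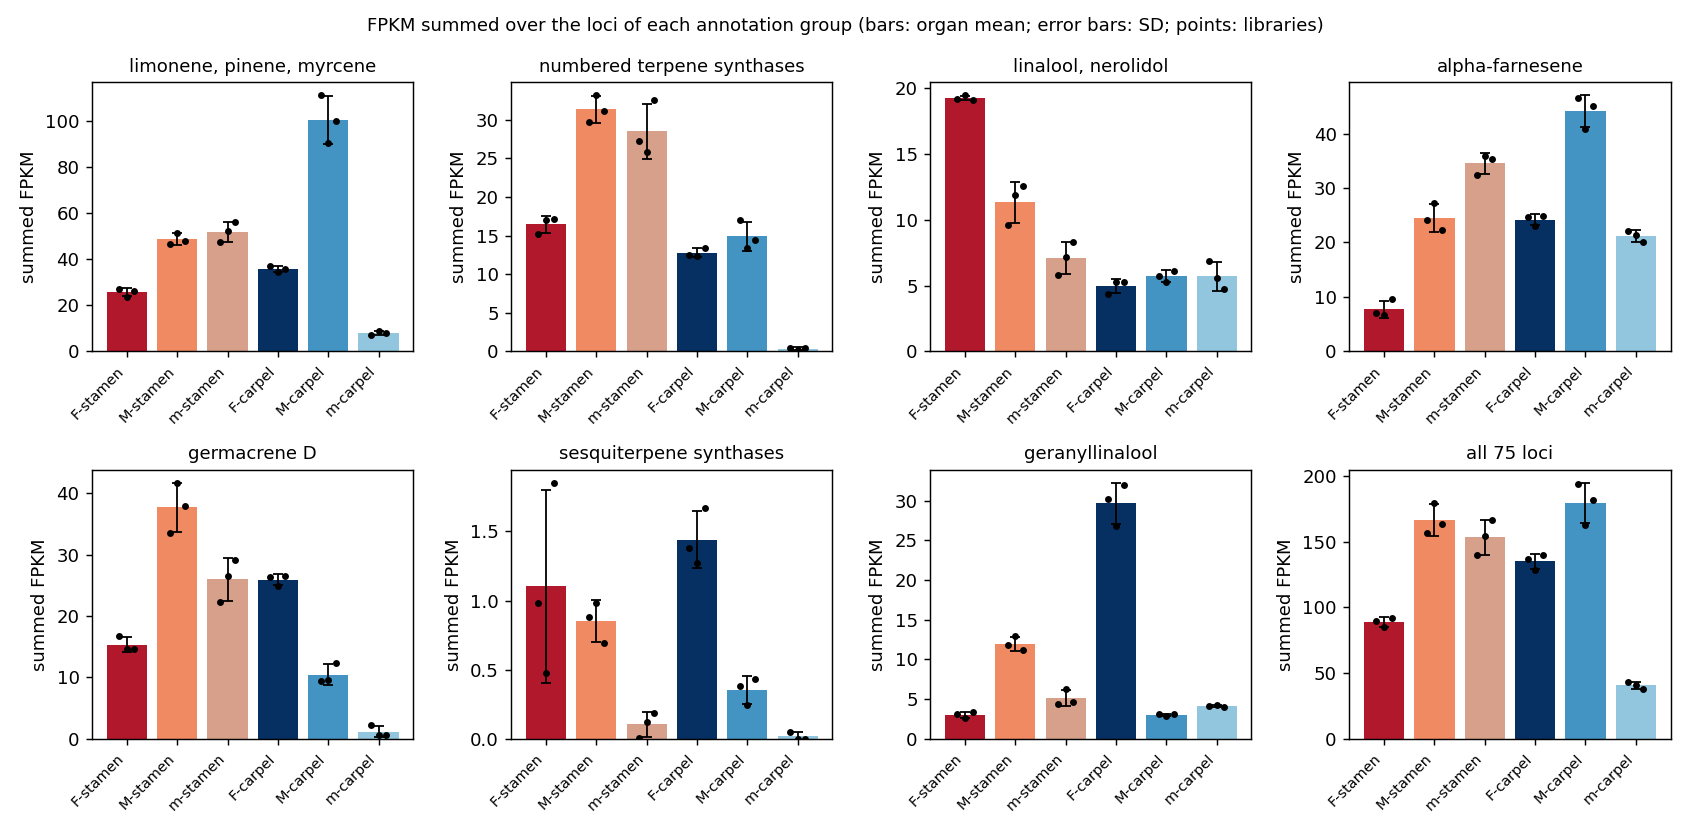
FPKM summed over the loci of each annotation group (y axis, a scale per panel) in the 6 organs (x axis); bars are means of 3 libraries, error bars are SD and points are libraries. The limonene, pinene and myrcene group reached 100.7 FPKM in M-carpel against 8.01 FPKM in m-carpel, and the linalool and nerolidol group was highest in F-stamen at 19.2 FPKM.

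The organs differed in which group made up this sum. Limonene, pinene and myrcene synthases made up 56.2% of it in M-carpel, alpha-farnesene synthases 52.2% in m-carpel, and geranyllinalool synthases 22.0% in F-carpel, against 10.2% in m-carpel, 1.68% in M-carpel and at most 7.20% in the stamens. Linalool and nerolidol synthases made up 21.7% of the sum in F-stamen, against 6.81% in M-stamen and 4.63% in m-stamen. Few loci carried each group: 1 locus, LITCHI029391, held 99.9% of the limonene, pinene and myrcene sum in M-carpel, and the 3 leading loci of the whole family held 85.3% of the M-carpel sum.

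LITCHI029391, most like the (R)-limonene synthase 1 of sweet orange (Citrus sinensis), an enzyme that forms the citrus-scented monoterpene limonene, reached the highest level of all members. It had 9.26, 7.57 and 7.63 FPKM in F-stamen, 46.1, 50.6 and 47.1 FPKM in M-stamen and 17.96, 17.98 and 18.9 FPKM in m-stamen. In carpel libraries it had 37.0, 34.4 and 36.0 FPKM in F-carpel, 111, 90.6 and 100.2 FPKM in M-carpel and 7.04, 8.88 and 7.60 FPKM in m-carpel. Every M-carpel library was above every other library, while F-stamen and m-carpel overlapped at the low end. The level in M-carpel was above m-carpel by a log2 fold change of 3.62 (SE 0.09, FDR 2.47e-15), and that in F-carpel was below M-carpel, at -1.68 (SE 0.08, FDR 4.29e-12; edgeR's quasi-likelihood test with Benjamini-Hochberg adjustment, as for all FDR values given here). Between M-stamen and M-carpel the log2 fold change was -1.03 (SE 0.08, FDR 4.15e-09), just past the minimum of 1, and it was under that minimum without M-carpel replicate 1, at -0.99. F-stamen was below M-stamen by a log2 fold change of -2.67 (SE 0.09, FDR 5.21e-14) and below F-carpel, at -2.01 (SE 0.08, FDR 5.67e-13). LcPI in M-carpel was at 11.9% of M-stamen, as given above, and its part was not tested.

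LITCHI021197, most like the probable terpene synthase 9 of castor bean (Ricinus communis), was low in F-stamen and m-carpel, as was the limonene synthase locus. Only LITCHI021197 was lowest in m-carpel without overlap. It had 6.58, 6.26 and 5.36 FPKM in F-stamen, 28.9, 31.7 and 29.3 FPKM in M-stamen and 9.02, 10.3 and 10.3 FPKM in m-stamen. Its level was 9.82, 9.58 and 10.6 FPKM in F-carpel, 15.7, 12.7 and 13.9 FPKM in M-carpel and 0.0287, 0.0696 and 0 FPKM in m-carpel. M-stamen was above all other organs without overlap, and the m-carpel libraries together held 9 counts. The log2 fold change was 8.18 (SE 0.25, FDR 3e-14) for M-carpel against m-carpel, 7.50 (SE 0.25, FDR 1.86e-14) for F-carpel against m-carpel and 7.98 (SE 0.25, FDR 6.24e-15) for m-stamen against m-carpel. M-stamen was above M-carpel by 1.14 (SE 0.13, FDR 1.11e-06) and F-stamen below M-stamen, at -2.35 (SE 0.14, FDR 2.4e-10).

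A locus of the CRABS CLAW gene (LITCHI005346), which in Arabidopsis acts in carpels and is needed for nectaries, had its highest and lowest organ in common with LITCHI021197. It averaged 14.0, 56.2 and 25.2 FPKM in F-stamen, M-stamen and m-stamen, against 17.9, 31.2 and 1.37 FPKM in F-carpel, M-carpel and m-carpel. It was the only nectary marker found, since no locus was annotated as SWEET9, and a part of nectary tissue in these results was not tested.

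LITCHI028831 and LITCHI028830 had their highest levels in m-stamen and F-stamen. LITCHI028831, most like the myrcene synthase of holm oak (Quercus ilex), an enzyme that forms an acyclic monoterpene, had 17.9, 16.2 and 18.5 FPKM in F-stamen, 0.523, 0.962 and 0.834 FPKM in M-stamen and 29.4, 34.3 and 37.2 FPKM in m-stamen. In the carpels it had 0.155, 0 and 0 FPKM in F-carpel, 0.293, 0 and 0 FPKM in M-carpel and 0, 0.0688 and 0.449 FPKM in m-carpel. LITCHI028830, most like the terpene synthase 10 of castor bean, had 8.16, 10.4 and 11.5 FPKM in F-stamen, 0.184, 0.582 and 0.978 FPKM in M-stamen and 17.6, 14.3 and 21.2 FPKM in m-stamen, and it did not pass 0.425 FPKM in any carpel library. For both loci, m-stamen lay above F-stamen without overlap, and M-stamen was far below both.

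The myrcene synthase locus was higher in F-stamen than in F-carpel by a log2 fold change of 8.26 (SE 0.71, FDR 1.3e-08), and higher in m-stamen than in m-carpel by 7.76 (SE 0.62, FDR 4.25e-09). Among the stamens, M-stamen was below m-stamen at -5.67 (SE 0.52, FDR 1.03e-07) and F-stamen was above M-stamen by 4.37 (SE 0.51, FDR 1.27e-06). For LITCHI028830 the same pairs of stamens gave -5.14 (SE 0.58, FDR 2.79e-06) and 3.96 (SE 0.56, FDR 2.43e-05), and F-stamen was above F-carpel by 6.86 (SE 0.71, FDR 4.35e-07). With 0 counts in the 3 M-carpel libraries, the M-stamen level of LITCHI028830 was at least 19.1-fold that of M-carpel, where 3 counts over an organ are taken as the floor. M-stamen against m-carpel was not called, with 1.08 (SE 0.69, FDR 0.178) for LITCHI028830 and 2.10 (SE 0.74, FDR 0.0192) for LITCHI028831. F-stamen against m-stamen did not pass the test, with -1.30 (SE 0.41, FDR 0.0112) for LITCHI028831 and -1.18 (SE 0.46, FDR 0.0404) for LITCHI028830. For LITCHI028831 it passed without any 1 of the M-carpel or F-carpel libraries and without m-carpel replicate 1 or 3, with log2 fold changes of -1.30 to -1.40 and FDR values of 0.00274 to 0.00986. It also passed with RLE size factors (-1.37, FDR 0.00807) and with no filter on low counts (-1.30, FDR 0.00992).

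The 3 pollen marker genes of the MIKC* group (LcMADS46, LcMADS47 and LcMADS93), whose Arabidopsis relatives act in pollen, had the same order over the stamens as these 2 loci. Their summed level was 77.7 to 85.8 FPKM in F-stamen, 45.4 to 51.7 FPKM in M-stamen and 139 to 148 FPKM in m-stamen, against 1.47 to 3.38 FPKM in the carpels, and none of the 3 was at 0. In M-stamen the 2 loci averaged 0.773 and 0.581 FPKM while the pollen markers were well above their carpel level. The part of pollen in these results was not tested.

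**Figure D2:**
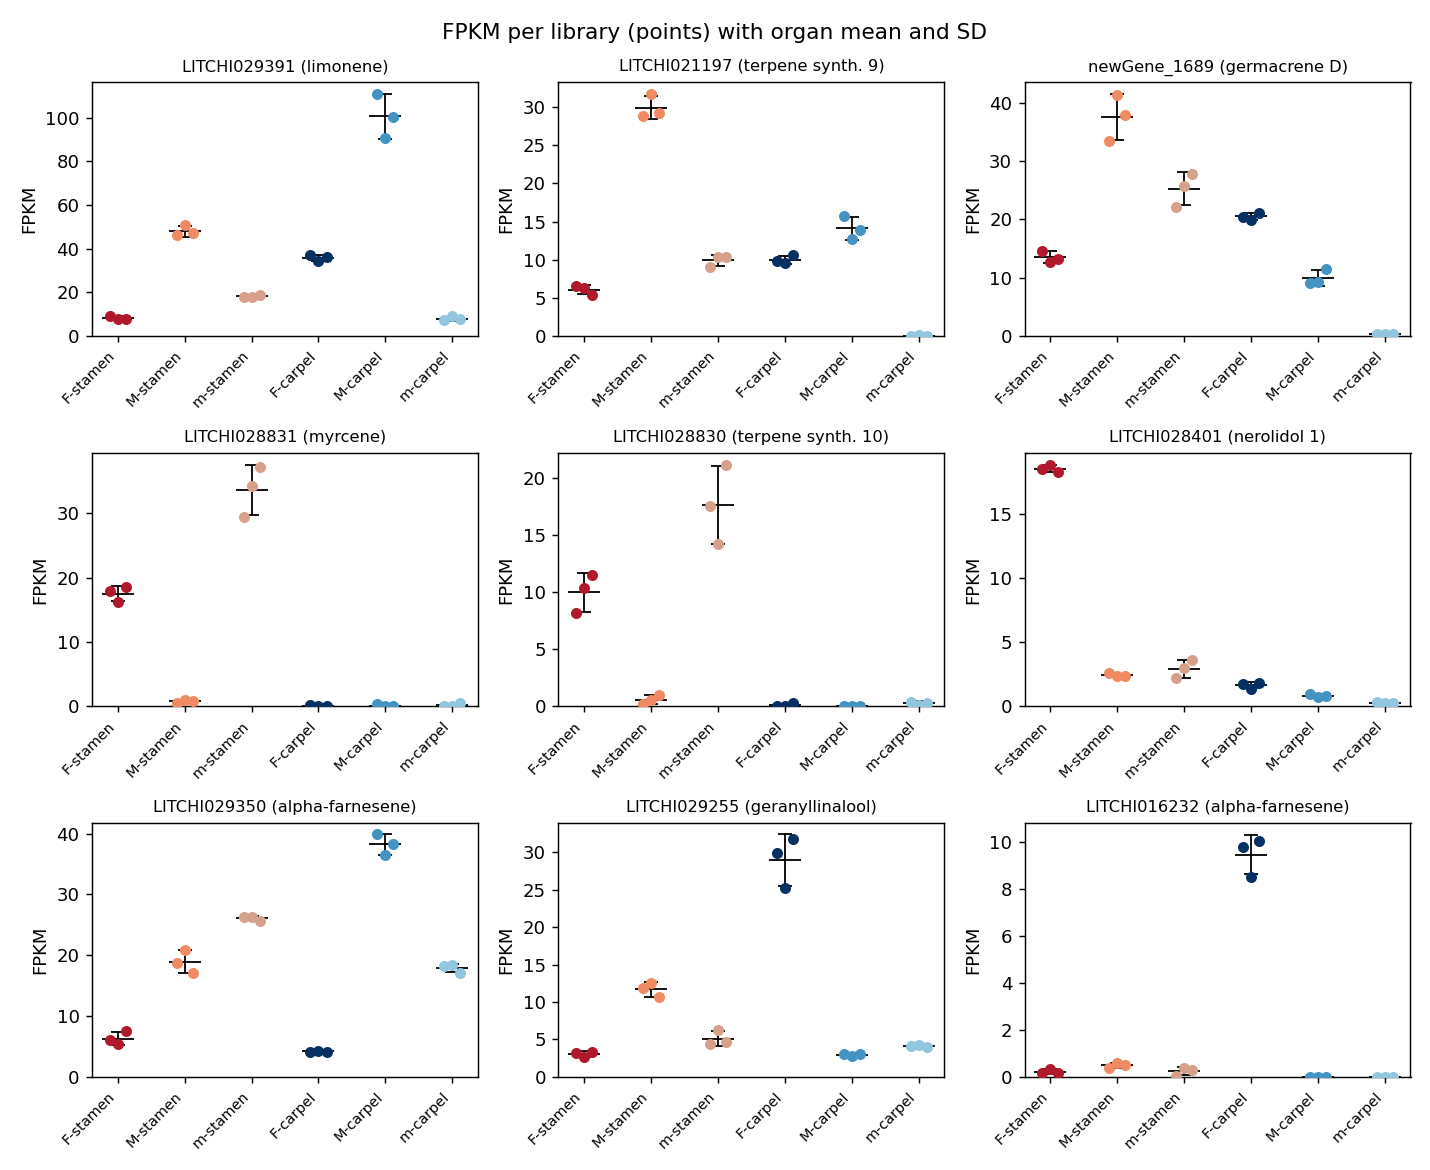
FPKM (y axis, a scale per panel) of 9 terpene synthase loci in each library (points) of the 6 organs (x axis), with organ means and SD as lines (n = 3). LITCHI029391 is highest in M-carpel at 100.6 FPKM, LITCHI028831 in m-stamen at 33.6 FPKM, LITCHI028401 in F-stamen at 18.6 FPKM and LITCHI029255 in F-carpel at 28.9 FPKM.

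Nerolidol synthases form the sesquiterpene alcohol nerolidol, and related enzymes of strawberry also form linalool, a common floral alcohol. LITCHI028401, most like the nerolidol synthase 1 of wild strawberry (Fragaria vesca), had 18.5, 18.9 and 18.3 FPKM in F-stamen, 2.58, 2.36 and 2.37 FPKM in M-stamen and 2.21, 2.97 and 3.60 FPKM in m-stamen. In carpel libraries it had 1.78, 1.36 and 1.83 FPKM in F-carpel, 0.928, 0.705 and 0.781 FPKM in M-carpel and 0.314, 0.246 and 0.241 FPKM in m-carpel. It was the member with the highest level in the rudimentary stamens of F flowers, and no library of another organ came near the F-stamen libraries. F-stamen was above F-carpel by a log2 fold change of 3.61 (SE 0.17, FDR 2.73e-12), above M-stamen by 2.81 (SE 0.16, FDR 1.41e-10) and above m-stamen by 2.30 (SE 0.16, FDR 1.14e-09). The stamen was also the higher organ in both male types, by 1.65 (SE 0.17, FDR 2.23e-07) in M flowers and by 3.68 (SE 0.19, FDR 1.22e-11) in m flowers.

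LITCHI029367, most like the nerolidol synthase 2 of garden strawberry (Fragaria ananassa), had its low end where LITCHI028401 had its peak. It had 0.566, 0.430 and 0.587 FPKM in F-stamen, 6.86, 9.35 and 10.2 FPKM in M-stamen and 3.08, 3.96 and 4.41 FPKM in m-stamen. Its level was 1.54, 2.31 and 2.04 FPKM in F-carpel, 4.78, 4.56 and 5.27 FPKM in M-carpel and 6.56, 5.30 and 4.47 FPKM in m-carpel. Both F organs were below all libraries of the male types, with F-stamen the lower of the 2. The log2 fold change was -4.13 (SE 0.21, FDR 2.5e-11) for F-stamen against M-stamen, -3.18 (SE 0.21, FDR 5.04e-10) for F-stamen against m-stamen, -1.50 (SE 0.18, FDR 1.33e-06) for F-carpel against M-carpel and -1.71 (SE 0.18, FDR 2.19e-07) for F-carpel against m-carpel. The deposited counts of this locus stand on 2 gene models that took turns between libraries: they had 0 and 717 counts in m-carpel replicate 1, and 549 and 26 counts in m-carpel replicate 2. With the models tested apart, these 4 comparisons no longer passed for the model with more reads, although its log2 fold changes kept their direction. In the order given, they were -3.28 (FDR 0.0445), -2.53 (FDR 0.1002), -2.26 (FDR 0.121) and -2.05 (FDR 0.1501). The S-(+)-linalool synthase locus LITCHI028405 had 11 counts in all libraries together and was not tested.

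Alpha-farnesene synthases, which form an acyclic sesquiterpene from farnesyl diphosphate, were the largest group, and its loci fell on different organs. LITCHI029350 had 6.03, 5.36 and 7.50 FPKM in F-stamen, 18.8, 20.9 and 17.1 FPKM in M-stamen and 26.4, 26.3 and 25.7 FPKM in m-stamen. In the carpels it had 4.14, 4.32 and 4.17 FPKM in F-carpel, 39.9, 36.5 and 38.3 FPKM in M-carpel and 18.2, 18.4 and 17.1 FPKM in m-carpel. The organs of F flowers were thus below all male organs. M-carpel had the highest FPKM, but m-stamen against M-carpel was not called, with a fitted log2 fold change of -0.25 (SE 0.09, FDR 0.0191). F-carpel was below M-carpel at a log2 fold change of -3.37 (SE 0.10, FDR 6.01e-15) and also below m-carpel, at -2.33 (SE 0.10, FDR 4.91e-13). F-stamen was below M-stamen with -1.70 (SE 0.09, FDR 9.02e-11) and below m-stamen with -2.41 (SE 0.10, FDR 7.31e-13). M-carpel was above m-carpel by 1.04 (SE 0.09, FDR 3.91e-08).

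LITCHI029355, a second alpha-farnesene synthase locus low in F flowers, averaged 1.12 ± 0.613 FPKM in F-stamen, 4.84 ± 0.674 FPKM in M-stamen and 7.89 ± 1.98 FPKM in m-stamen (SD, n = 3 each). It averaged 1.76 ± 0.393 FPKM in F-carpel, 5.90 ± 1.31 FPKM in M-carpel and 3.28 ± 0.496 FPKM in m-carpel (SD, n = 3 each). F-carpel was below M-carpel at a log2 fold change of -1.92 (SE 0.30, FDR 1.98e-05), F-stamen was below M-stamen with -2.21 (SE 0.31, FDR 9.84e-06) and below m-stamen with -3.16 (SE 0.31, FDR 1.28e-07).

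Most other alpha-farnesene synthase loci with reads had their highest level in the female carpel. LITCHI016232 had 9.78, 8.51 and 10.1 FPKM in F-carpel, stayed between 0.0520 and 0.596 FPKM in the 9 stamen libraries and had 0 counts in all M-carpel and m-carpel libraries. From 2358 counts in F-carpel, its level was at least 672-fold that of M-carpel and at least 755-fold that of m-carpel. F-stamen was below F-carpel at a log2 fold change of -5.21 (SE 0.46, FDR 2.54e-07). LITCHI016231 had 3.52, 2.96 and 2.78 FPKM in F-carpel, at most 0.0316 FPKM in F-stamen and 0.0901 FPKM in m-stamen, and 0 counts in M-stamen, M-carpel and m-carpel. Its level in F-carpel was at least 220.4-fold that of M-carpel and at least 247.6-fold that of m-carpel. LITCHI029160 had 1.76, 1.496 and 1.90 FPKM in F-carpel and at most 0.163 FPKM in a stamen library, and its F-carpel level was at least 155.6-fold that of M-carpel and at least 174.9-fold that of m-carpel, where it had 0 counts. F-stamen was below F-carpel with log2 fold changes of -6.74 (SE 0.64, FDR 2.18e-06) for LITCHI016231 and -5.42 (SE 0.97, FDR 0.000226) for LITCHI029160.

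Germacrene D synthases form another sesquiterpene, and 1 of their loci stood far above the rest. Litchi_chinensis_newGene_1689 (newGene_1689), most like the (-)-germacrene D synthase of grapevine (Vitis vinifera), had 14.6, 12.6 and 13.2 FPKM in F-stamen, 33.5, 41.3 and 37.9 FPKM in M-stamen and 22.2, 25.8 and 27.7 FPKM in m-stamen. In carpel libraries it had 20.5, 19.96 and 21.1 FPKM in F-carpel, 9.14, 9.27 and 11.5 FPKM in M-carpel and 0.376, 0.399 and 0.308 FPKM in m-carpel. By FPKM M-stamen was above all other organs, but M-stamen against m-stamen was not called (0.35, SE 0.09, FDR 0.00271). All m-carpel libraries were below all others, with 65 counts together. The log2 fold change of newGene_1689 was 6.07 (SE 0.12, FDR 2.16e-17) for m-stamen against m-carpel, 4.42 (SE 0.12, FDR 1.21e-14) for M-carpel against m-carpel and 5.22 (SE 0.12, FDR 1.54e-16) for F-carpel against m-carpel. M-stamen was above M-carpel by 2.01 (SE 0.09, FDR 2.88e-12), whereas F-stamen against F-carpel, at -0.29 (SE 0.09, FDR 0.00736), stayed under the minimum fold change. CRABS CLAW was also highest in M-stamen and lowest in m-carpel, as given above, and its part was not tested.

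newGene_1371, a germacrene D synthase locus, belonged to the female carpel, with 2.88, 2.74 and 2.71 FPKM in F-carpel, 0.131, 0 and 0 FPKM in F-stamen and 0.0327, 0 and 0 FPKM in m-carpel. It had 0 counts in the other organs, and its F-carpel level was at least 142.5-fold that of M-carpel. Against the 2 counts in m-carpel the ratio was 240.2 (95% exact counting interval 66.2 to 1989). F-stamen was below F-carpel at a log2 fold change of -5.75 (SE 1.03, FDR 0.000441), a call that DESeq2 did not make at a similar log2 fold change (-5.89, FDR 0.234). newGene_1040, a further germacrene D synthase locus, was found almost only in F-stamen, with 0.566, 0.855 and 0.827 FPKM there and 0 counts in M-stamen and m-stamen. Its F-stamen level was at least 32.4-fold that of M-stamen and at least 34.6-fold that of m-stamen.

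Sesquiterpene synthases of other names, most like enzymes of sandalwood (Santalum), stayed at low levels, at 1.44 ± 0.207 FPKM summed over the 9 loci in F-carpel and 0.0174 ± 0.0302 FPKM in m-carpel (SD, n = 3 each). LITCHI000824 had 0.612, 0.394 and 0.276 FPKM in M-stamen against 0, 0 and 0.0269 FPKM in m-stamen, a ratio of 48.5 from 91 and 2 counts (95% exact counting interval 13.1 to 407). The difference passed the test (FDR 0.00552).

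Geranyllinalool synthase of Arabidopsis makes the precursor of a homoterpene that its leaves release under insect attack. LITCHI029255, most like this enzyme, had 3.18, 2.60 and 3.36 FPKM in F-stamen, 11.8, 12.6 and 10.6 FPKM in M-stamen and 4.42, 6.204 and 4.65 FPKM in m-stamen. Its level was 29.9, 25.2 and 31.8 FPKM in F-carpel, 3.05, 2.73 and 3.05 FPKM in M-carpel and 4.13, 4.22 and 3.99 FPKM in m-carpel. F-carpel was above all other organs and M-stamen came next, both without overlap with another organ in FPKM, while M-stamen against m-stamen was not called (0.95, SE 0.12, FDR 4.54e-06). F-carpel was above M-carpel by a log2 fold change of 3.10 (SE 0.13, FDR 5.99e-13) and above m-carpel by 2.57 (SE 0.12, FDR 3.93e-12). The stamen was lower than the carpel in F flowers, at -3.12 (SE 0.13, FDR 4.75e-13), and higher in M flowers, at 2.04 (SE 0.13, FDR 1.99e-10).

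LITCHI003540, the other geranyllinalool synthase locus with a call, had 0.391, 1.66 and 0.0426 FPKM in F-carpel and 0 counts in F-stamen. Its level in F-carpel was at least 58.8-fold that of F-stamen (FDR 0.00593), and its 36, 142 and 4 counts in the F-carpel libraries lay far apart. LITCHI021182, most like the probable terpene synthase 11 of castor bean, was also highest in F-carpel, with 2.69, 2.77 and 2.61 FPKM there, 1.26, 0.497 and 0.418 FPKM in M-carpel and 0.0252, 0.0252 and 0.129 FPKM in m-carpel. In the stamens it stayed between 0.210 and 0.894 FPKM. LITCHI021182 was higher in F-carpel than in m-carpel by a log2 fold change of 5.09 (SE 0.55, FDR 2.18e-07). The difference from M-carpel, 1.70 (SE 0.43, FDR 0.00242), was not called without M-carpel replicate 2 (1.52, FDR 0.0139) or without M-carpel replicate 3 (1.44, FDR 0.0147), and it was called without M-carpel replicate 1.

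**Figure D3:**
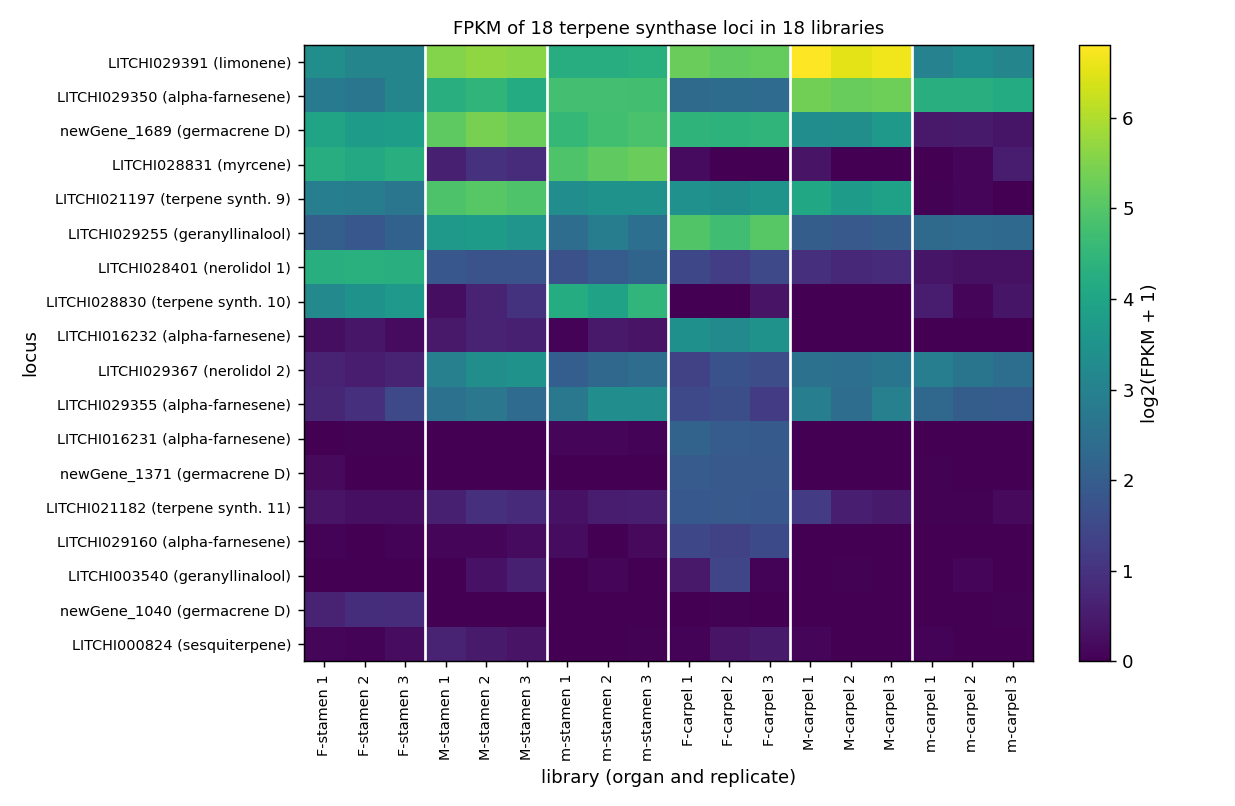
Level as log2(FPKM + 1), shown by colour, of the 18 terpene synthase loci chosen by highest level or largest called change (y axis) in the 18 libraries (x axis, by organ). LITCHI016231, LITCHI016232, newGene_1371 and LITCHI029160 show colour mainly in the 3 F-carpel columns, where LITCHI016232 averaged 9.45 FPKM, and the m-carpel columns are dark for LITCHI021197 at 0.0328 FPKM.

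For tests across organs, 30 of the 75 loci passed the filter on low counts. A locus can pass through 1 organ where it is high, so that the counts below describe these 30 loci and not the whole family. A locus was called at an FDR below 0.01 with a log2 fold change of at least 1 in either direction, and 27 of the 30 were called in at least 1 of 10 comparisons, as were 70.9% of all loci tested. F-carpel was the organ with the highest level for 14 of the 30, M-stamen for 5, F-stamen and m-stamen for 4 each, M-carpel for 3 and m-carpel for 0. The same tally was not made over all loci tested, so these counts cannot be read as a trait of the family. At least 90% of the CPM summed over the organs fell on F-carpel for 6 of the 30, against 1.16% of all loci tested, a threshold that was chosen after the values were seen. The 6 were LITCHI016231, LITCHI016232, LITCHI016233, LITCHI016235, LITCHI016236 and newGene_1371. The first 5 are alpha-farnesene synthase loci with close identifiers, so they may not be independent of each other. LITCHI016233, LITCHI016235 and LITCHI016236 held only 153, 83 and 180 counts over all libraries. The ovule gene LcSTK was also highest in F-carpel, at 30.6 to 34.7 FPKM, against 0.846 to 1.48 FPKM in M-carpel and 7.52 to 8.16 FPKM in m-carpel. The first 5 of the 6 loci had 0 counts in M-carpel and m-carpel, and the part of ovule tissue was not tested. The 9 called loci that are not described singly had organ means of at most 1.17 FPKM, the level of the nerolidol synthase locus LITCHI028410 in F-carpel.

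Most loci called between stamen and carpel were lower in the stamen in F flowers and higher in the stamen in both male types. In F flowers 19 of the 30 loci were called between F-stamen and F-carpel, 4 higher and 15 lower in F-stamen, where 37% of all loci tested were called (21.4% higher and 15.6% lower). The median log2 fold change of the 30, fitted and with bounds, was -1.84, against 0.08 over all loci. The 4 higher loci were LITCHI028401, LITCHI028830, LITCHI028831 and newGene_1040, the last of which passed the filter through F-stamen. Among the lower loci, LITCHI016233, LITCHI016235 and LITCHI016236 had 0 counts in F-stamen and passed the filter through F-carpel. LITCHI003540 and newGene_1597 also had 0 counts in F-stamen. LITCHI000812, LITCHI016231, newGene_1371 and LITCHI028410 had few reads outside F-carpel and passed through it. They held 99, 773, 500 and 318 counts in F-carpel against 4, 6, 8 and 21 in F-stamen. Loci with 0 counts could only be called lower in F-stamen, and the others passed through the organ where they are high. This direction and the median were thus partly set by the filter. In M flowers 11 loci were called, 10 higher in M-stamen and LITCHI029391 lower, where 26.7% of all loci were called (15.7% higher), and the median was 1.83, or 1.46 over the 24 loci that allow a fold, with loci of 0 to 3 counts in an organ set to their bound or ratio, against 0.01 over all loci. In m flowers 13 loci were called, all higher in m-stamen, where 41.3% of all loci were called (23.6% higher), so that the share called, 43.3%, was near that of all loci while the directions differed. The median was 2.82, or 2.38 with bounds over 24 loci, against 0 over all loci. LITCHI000819, LITCHI016231 and LITCHI016232 were among the 13 with 0 counts in m-carpel, so they could only be called higher in m-stamen. The same held for LITCHI016232 in M flowers, with 0 counts in M-carpel. The directions in both male types were thus partly set in advance. Over the mean of the 3 flower types, 7 loci were higher in stamens and 0 lower (32.2% of all loci called, 20% higher), with a median of 0.21 against 0.01. The difference between stamen and carpel in F flowers was set against the mean of that in M and m flowers by an interaction contrast, and 13 of the 30 passed, all with a lower value in F flowers, where 32.6% of all loci passed (15.4% lower). LITCHI016233, LITCHI016236 and LITCHI028410 were among the 13 and passed the filter through F-carpel, so this direction was also partly set by the filter.

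Among the carpels, more of the called loci were higher than lower in F-carpel. LITCHI000812, LITCHI016231, LITCHI016233, LITCHI016235 and LITCHI016236 had 0 counts in M-carpel and m-carpel and passed the filter through F-carpel. newGene_1371, with 0 and 2 counts in these organs, also passed through F-carpel. LITCHI016232 and LITCHI029160 had 0 counts in both organs as well. Among further loci called higher in F-carpel, LITCHI029364 had 0 counts in M-carpel, and LITCHI000819 and LITCHI028410 had 0 counts in m-carpel. Such loci could only be called higher in F-carpel, so the directions and medians of the comparisons with F-carpel were partly set by the filter. Between F-carpel and M-carpel 17 of the 30 were called, 13 higher and 4 lower in F-carpel, where 32.7% of all loci were called (16.3% higher and 16.4% lower). The 4 lower were the limonene synthase locus LITCHI029391, the alpha-farnesene synthase loci LITCHI029350 and LITCHI029355 and the nerolidol synthase locus LITCHI029367. Between F-carpel and m-carpel 19 were called, 16 higher and 3 lower in F-carpel, where 38.3% of all loci were called (20.6% higher). The medians were 3.32 (3.10 with bounds over 29 loci) and 4.14 (3.74 with bounds over 28 loci), against 0 over all loci in each. Between M-carpel and m-carpel 6 were called, all higher in M-carpel, where 14.7% of all loci were called (9.95% higher and 4.8% lower). They were LITCHI029391, LITCHI029350, LITCHI021197, LITCHI021182, LITCHI028401 and newGene_1689. The stamen markers LcPI and LcAP3-1 moved the same way, with a summed level of 133 to 142 FPKM in M-carpel against 39.0 to 41.5 FPKM in m-carpel, and neither was at 0. The part of stamen RNA in these 6 differences was not tested. The median over the 30 was 0 against 0.02 over all loci, and 1.04 with bounds over the 19 loci that allow a fold.

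Among the stamens, most called loci were lower in F-stamen than in the male types. Between F-stamen and M-stamen 12 of the 30 were called, 4 higher and 8 lower in F-stamen, where 18.7% of all loci were called (10.6% higher and 8.1% lower), with a median of -1.35 (-1.14 with bounds over 28 loci) against 0.18 over all loci. Between F-stamen and m-stamen 9 were called, 2 higher and 7 lower in F-stamen, where 22.9% of all loci were called (12.9% higher and 10% lower), with a median of -1.03 (-0.95 with bounds over 27 loci) against 0.10. The 2 higher loci were LITCHI028401 and newGene_1040. With 100 counts in F-stamen and 0 in M-stamen and m-stamen, newGene_1040 passed the filter through F-stamen. It could only be called higher there, also in the comparison with M-stamen. Between M-stamen and m-stamen 6 were called, 3 in each direction, where 13.1% of all loci were called (5.84% higher and 7.3% lower), with a median of 0.22 (0.58 with bounds over 27 loci) against 0. The comparisons share organs, so their counts are not independent of each other.

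**Figure D4:**
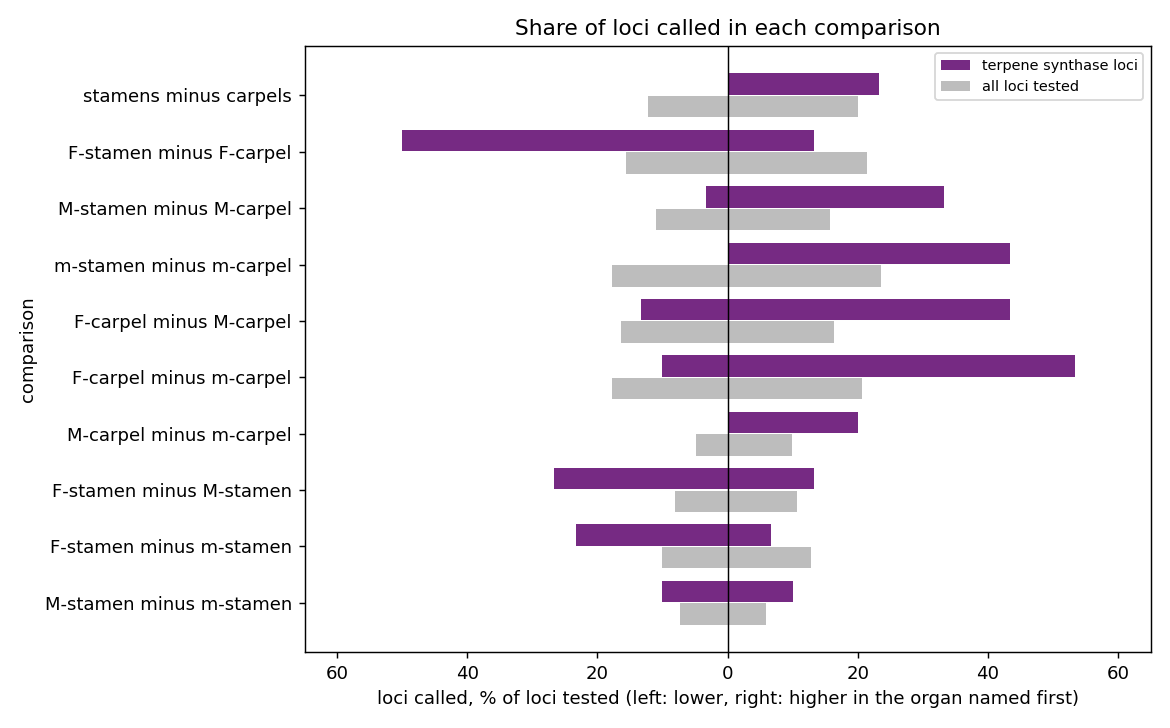
Share of loci called (x axis, % of loci tested, to the left lower and to the right higher in the organ named first) in 10 comparisons (y axis), for the 30 terpene synthase loci tested (purple) and all 24666 loci tested (grey). In F-stamen against F-carpel 15 of the 30 loci lie to the left, and in m-stamen against m-carpel all 13 called loci lie to the right.

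The reads of closely similar loci may have been split or left out by the counting, and no sequence was at hand to look for identical stretches, so levels of single loci within the large groups are uncertain. LITCHI029161 and LITCHI029162, a pair of alpha-farnesene synthase loci chosen after their values were seen, are an example. LITCHI029161 had 133, 0 and 152 counts in the F-carpel libraries and LITCHI029162 had 0, 128 and 0, so that 1 of the pair had reads in each library. Their sums were 133, 128 and 152 counts in F-carpel, against 2 counts in 1 M-carpel library and 0 counts in all libraries of the other organs. Neither locus alone passed the filter. Of the 22 loci without reads, 12 were numbered terpene synthases, 5 alpha-farnesene synthases, 4 limonene, pinene or myrcene synthases and 1 a nerolidol synthase.

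The enzymes that supply the substrates were described from lists of the MEP pathway, the mevalonate pathway and prenyl diphosphate synthesis. In the MEP pathway 12 of 15 loci were tested, and F-stamen was lower than M-stamen for 4 of them and higher for 0, where 8.1% of all loci were lower and 10.6% higher. Between m-stamen and m-carpel 3 were higher and 3 lower in m-stamen, where 23.6% of all loci were higher and 17.7% lower. LITCHI006582, the leading locus of 1-deoxy-D-xylulose-5-phosphate synthase (DXS), the entry enzyme of the pathway, had 26.5, 24.4 and 26.5 FPKM in F-stamen, 69.3, 71.1 and 69.6 FPKM in M-stamen and 133, 143 and 139 FPKM in m-stamen. In the carpels it averaged 14.9 FPKM in F-carpel, 40.5 FPKM in M-carpel and 15.6 FPKM in m-carpel. It was lower in F-stamen than in m-stamen with a log2 fold change of -2.78 (SE 0.06, FDR 1.25e-16), lower than in M-stamen with -1.55 (SE 0.05, FDR 1.38e-13), and higher in m-stamen than in m-carpel by 3.39 (SE 0.06, FDR 2.18e-18). The last 2 enzymes of the pathway, HDS (LITCHI024667) and HDR (LITCHI001758), were lower in F-stamen than in M-stamen as well, with -1.80 (SE 0.04, FDR 1.41e-15) and -1.66 (SE 0.05, FDR 2.08e-14).

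In the mevalonate pathway 13 of 14 loci were tested, and 4 were higher in m-stamen than in m-carpel and 0 lower. With 23.6% of all loci higher in that comparison, the count was near that of all loci. LITCHI009869, the leading locus of HMG-CoA reductase (HMGR), the main control step of the pathway, averaged 157, 197 and 204 FPKM in F-stamen, M-stamen and m-stamen, against 259, 133 and 85.4 FPKM in F-carpel, M-carpel and m-carpel. It was higher in F-carpel than in m-carpel by a log2 fold change of 1.36 (SE 0.05, FDR 1.91e-14). A further HMGR locus, LITCHI002211, which was chosen after its values were seen, had the opposite order of organs in F flowers, with 208 FPKM in F-stamen against 35.6 FPKM in F-carpel and a log2 fold change of 2.67 (SE 0.08, FDR 2.88e-15).

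In prenyl diphosphate synthesis 12 of 14 loci were tested. Between F-carpel and m-carpel 7 were higher and 1 lower in F-carpel, and between F-stamen and F-carpel 3 were higher and 7 lower in F-stamen, against the shares of all loci given above for these comparisons. LITCHI013583, the leading locus of farnesyl diphosphate synthase (FPPS), which makes the substrate of sesquiterpene synthases, had 33.2, 34.0 and 34.0 FPKM in F-stamen, 27.8, 34.6 and 27.4 FPKM in M-stamen and 24.0, 22.7 and 24.3 FPKM in m-stamen. In the carpels it had 81.7, 77.0 and 78.5 FPKM in F-carpel, 21.2, 18.1 and 17.0 FPKM in M-carpel and 20.1, 18.4 and 16.5 FPKM in m-carpel. F-carpel was thus the highest organ without overlap. The log2 fold change was 1.88 (SE 0.08, FDR 1.65e-12) for F-carpel against M-carpel, 1.86 (SE 0.08, FDR 1.33e-12) for F-carpel against m-carpel and -1.10 (SE 0.08, FDR 1.68e-09) for F-stamen against F-carpel. The leading locus of geranylgeranyl diphosphate synthase, LITCHI006692, averaged 17.1, 40.0 and 28.4 FPKM in F-stamen, M-stamen and m-stamen, against 36.8, 16.4 and 8.96 FPKM in F-carpel, M-carpel and m-carpel. It was lowest in m-carpel, with log2 fold changes of 1.80 (SE 0.06, FDR 4.6e-14) for F-carpel against m-carpel and 1.91 (SE 0.06, FDR 1.91e-14) for m-stamen against m-carpel. No locus was annotated as geranyl diphosphate synthase.

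**Figure D5:**
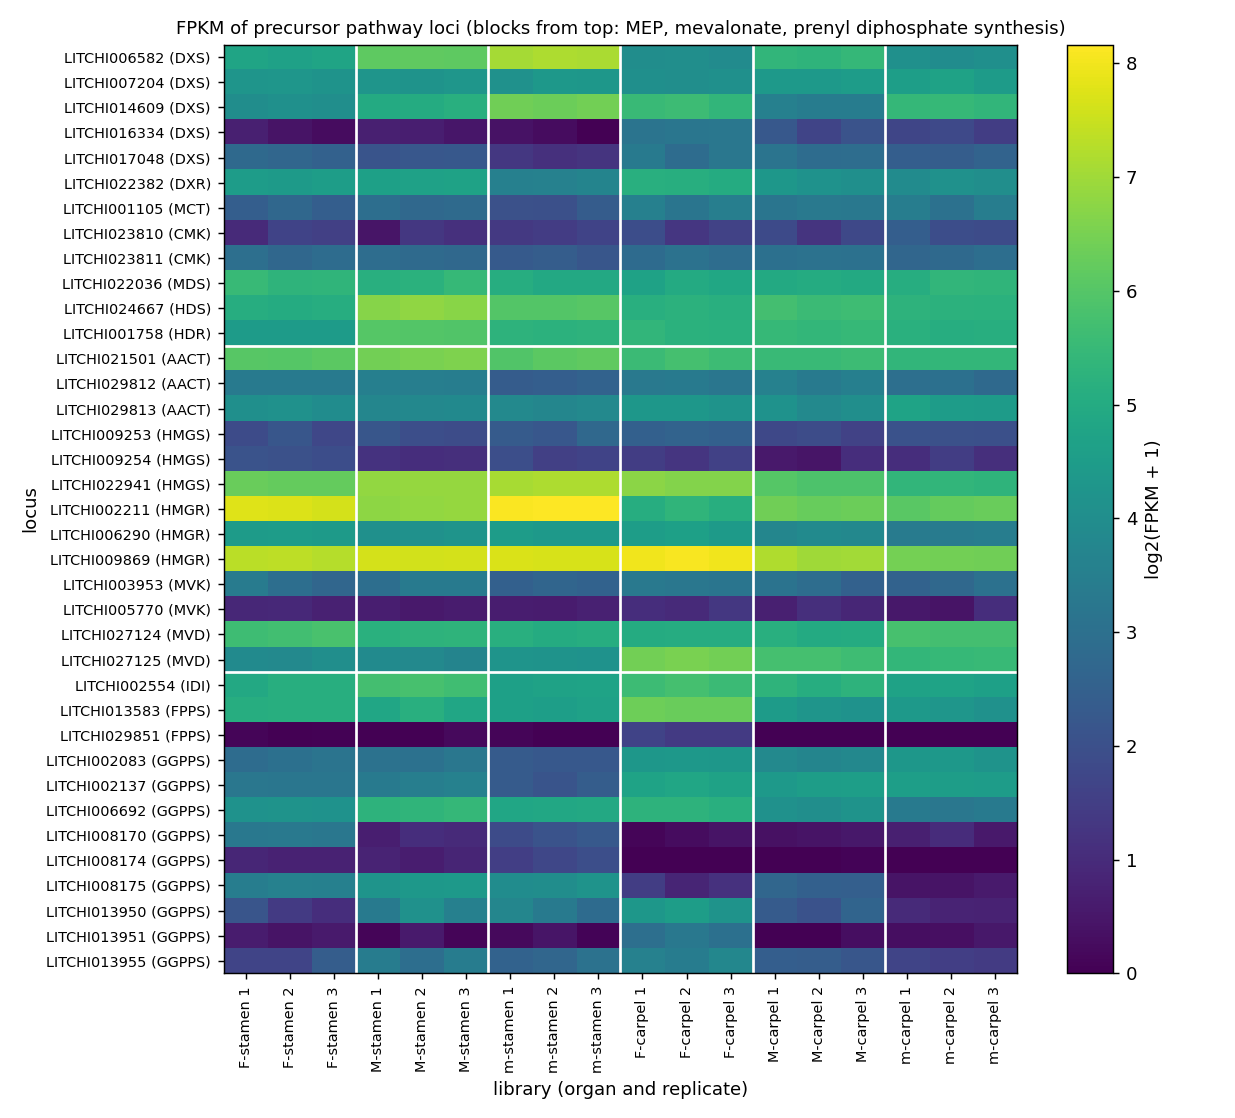
Level as log2(FPKM + 1), shown by colour, of the precursor pathway loci that were tested (y axis, blocks from the top are MEP, mevalonate and prenyl diphosphate synthesis) in the 18 libraries (x axis, by organ). LITCHI006582 (DXS) is brightest in m-stamen, at 138 FPKM, and LITCHI013583 (FPPS) in F-carpel, at 79.1 FPKM.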

How the data were processed

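RNA was extracted with a column kit and DNase, and libraries were made with the NEBNext Ultra kit and sequenced as paired ends on an Illumina platform. The authors trimmed reads with Trimmomatic, removed reads that matched ribosomal RNA and deposited whole-number read counts per gene model, without normalization, together with FPKM values that they calculated with Cufflinks from uniquely mapped reads. The submitters' processing notes name HISAT2 2.0.4 and StringTie. Neither the build of the genome nor the program that counted reads is given in the sources used here. The deposited table also holds FDR and log2 fold changes of 9 comparisons made by the authors, which were not used.

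Counts and FPKM were summed over the models of a locus. Counts were tested in edgeR 4.0.16 (R 4.3.3): filterByExpr by organ left 24666 loci, TMM factors were 0.821 to 1.17, and the quasi-likelihood test was run in 1 model of 6 organs with Benjamini-Hochberg adjustment over all loci tested. FPKM were not scaled by the TMM factors, so orders of organs by FPKM and by fitted log2 fold change can differ. SE is the log2 fold change over the root of F. Where an organ had 0 counts, 3 counts over its libraries served as floor. Intervals and floors cover counting error only. The named members are the 15 with the highest organ mean and, for each of 10 comparisons, the called locus with the largest rise and fall. Of each pathway enzyme the locus with the highest mean could be named. Alternatives were RLE factors, DESeq2 1.42.0, no filter, limma 3.58.1 on log2(FPKM + 1), which understates changes of low loci, a replicate block, models not summed, an FDR below 0.05 and each library left out. The procedures were tested on simulated data. Members and lists were chosen with earlier results of these data known.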

Additional observations from a re-analysis of the deposited data

Results flagged for a closer look

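For 9 named loci the difference between stamen and carpel in F flowers was not the same as the mean of that in M and m flowers. It was tested by edgeR's quasi-likelihood interaction contrast (the F difference minus the mean of the M and m differences) with Benjamini-Hochberg adjustment. In all of them the stamen stood lower relative to the carpel in F flowers than in that mean, and 32.6% of all loci tested passed this contrast. The log2 difference was -5.09 (SE 0.21) for LITCHI021197, -4.76 (SE 0.59) for LITCHI021182, -4.41 (SE 0.15) for LITCHI029255, -4.33 (SE 0.12) for newGene_1689, -2.22 (SE 0.10) for LITCHI029391 and -2.05 (SE 0.24) for LITCHI029367. The contrast of LITCHI029367 was lost with the gene models tested apart (FDR 0.723). The M and m differences that enter the mean were not always alike. For LITCHI029391 the log2 fold change of stamen against carpel was -2.01 in F flowers and -1.03 in M flowers, the same direction. In m flowers the mean level went the other way, at 18.3 FPKM in m-stamen against 7.84 FPKM in m-carpel. For LITCHI021197 it was -0.53 in F, 1.14 in M and 7.98 in m flowers, where m-carpel held few reads. For LITCHI016232 (FDR 1.2e-08), LITCHI029160 (FDR 1.51e-05) and LITCHI003540 (FDR 0.00416) an organ with 0 counts enters the contrast, so no size is given.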

How the results depend on the processing

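Of 275 counts of members called under the alternatives, 267 stayed within 1.5 times the count in the report, and none of 2049 log2 fold changes of single loci changed sign. With an FDR below 0.05, 12 loci were called between stamens and carpels and 14 between F-stamen and m-stamen. With limma on log2(FPKM + 1), which understates changes of low loci, 11 were called between F-stamen and F-carpel, 4 between M-stamen and M-carpel, 7 between m-stamen and m-carpel, 5 between F-stamen and m-stamen and 10 in F-carpel against M-carpel. With gene models not summed, 12 were called between F-stamen and F-carpel. Of 88 fold changes of single loci, 13 lost their call under at least 1 alternative and 2 gained it. LITCHI029391 between M-stamen and M-carpel went under the minimum fold change with RLE factors or DESeq2 (-0.99) and with models not summed (-0.78).

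The replicate numbers did not pair the libraries: correlations of deviations between same-numbered libraries were -0.0369 to 0.0611 over 45 pairs, and 0 were above 0.1. With the replicate block, 16, 9 and 12 loci were called between stamen and carpel in F, M and m flowers, and for F-carpel there were 15 calls against M-carpel and 18 against m-carpel.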
